A study of Mus musculus with 2 samples.

Results

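Hacd1 and the other enzymes of very-long-chain fatty acid elongation were examined in the mouse macrophage-like cell line RAW264.7, infected with MSCV, a retroviral vector, that was either empty or coded for miR-155. The 10 genes were Hacd1, its paralogs Hacd2, Hacd3 and Hacd4, the elongases Elovl1, Elovl5, Elovl6 and Elovl7, the ketoreductase Hsd17b12 and the enoyl reductase Tecr. They were chosen by role around Hacd1, which was itself picked for its difference between the arms, and were 10 of 18193 genes named from probesets with 1 symbol. Together they had 27 probesets. Both arms had been infected in the presence of polybrene, kept in medium with 10% fetal bovine serum and selected with 7 µg/ml puromycin, and the RNA of 5 clones was pooled in each arm. Each pool was read on 1 Affymetrix array. The sources used here do not give the promoter that drove miR-155.

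Fatty acids beyond the length made by fatty acid synthase are lengthened in the endoplasmic reticulum by a repeating cycle. An ELOVL elongase condenses an acyl-CoA with malonyl-CoA, HSD17B12 reduces the resulting ketone, an HACD enzyme removes water, and TECR reduces the remaining double bond. The products enter ceramides, sphingolipids and membrane phospholipids. HACD1 is best known from striated muscle, where its loss causes a congenital myopathy.

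Of the mature strands of the microRNA gene in the vector, 5p is printed and 3p is not. In the printed strand, the seed, bases 2 to 8 in capitals, is the part that pairs with target mRNAs. The sequence is that of RefSeq, build GRCm38.p6, from chr16:84714143-84714165 on the plus strand.

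mmu-miR-155-5p: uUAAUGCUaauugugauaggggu

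The DNA letters complementary to that seed are AGCATTA. The transcripts of the elongation genes were not searched for them, as transcript sequences were not used here.

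With 1 array per group there was no test and no p-value, and every difference describes these 2 arrays. The spread beside a log2 ratio (miR-155 over empty vector) is the robust SD of the ratio among the 500 genes nearest in signal, called the local SD. It does not measure variation between clones or cultures. Each gene is represented by its brightest probeset, and the upper 50% of genes by mean signal, 9097 in all, were kept. The lowest mean signal among them, 25.8, is the signal floor, and no ratio is given for a gene or probeset with a reading below it. The median signal of all probesets was 15.4 with empty vector and 14.1 with miR-155, and the median log2 ratio of the genes kept was -0.05. In pooled RNA, fewer clones or cells expressing a gene and less RNA per cell cannot be told apart.

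The cell line was checked against its markers. Of 12 macrophage markers 11 were kept, and the summed signal of all 12 was 25380 with empty vector and 24709 with miR-155. Csf1r, the receptor for the macrophage growth factor CSF1, read 6040 and 5095, and the lysozyme gene Lyz2 read 6058 and 4731. Among the 11, 3 markers were at least 1.5-fold higher on the miR-155 array and 2 at least 1.5-fold lower. The higher ones were Cd14 at a log2 ratio of 1.26, Aif1 at 0.95 and Fcgr1 at 0.66. The lower ones were Cd36 at -1.13 and Adgre1 at -0.71. Aif1 rests on 1 dim probeset, at 33.3 with empty vector and 64.1 with miR-155 (local SD 0.53). Of all genes kept, 5.32% were at least 1.5-fold higher and 5.99% lower, smaller shares than among these markers. The similar sums thus hide shifts of single markers in both directions. The mannose receptor gene Mrc1 lay below the floor on both arrays. Of 8 fibroblast markers, 0 reached the floor on either array.

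Of the elongation genes, Hacd1 was far lower on the miR-155 array, Hacd4 was higher from a dim reading, and the other 7 genes kept, which cover all 4 reactions of the cycle, had log2 ratios between -0.21 and 0.06. Of the 10 genes 9 were kept, 1 of them at least 1.5-fold lower and 1 at least 1.5-fold higher. Both were also past 2-fold. Among all genes kept, 5.99% were at least 1.5-fold lower and 5.32% at least 1.5-fold higher, and 1.43% and 1.92% passed 2-fold. Among the 8765 with neither reading below the floor, as in these 9, 4.93% were at least 1.5-fold lower and 4.39% higher. The balance over all genes kept depended on the scaling, with 545 lower and 484 higher as deposited, 432 and 617 after centring the median probeset ratio on 0, and 464 and 572 with quantile normalisation. Hacd1 was chosen for this contrast, so nothing is read from the count.

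**Figure D1:**
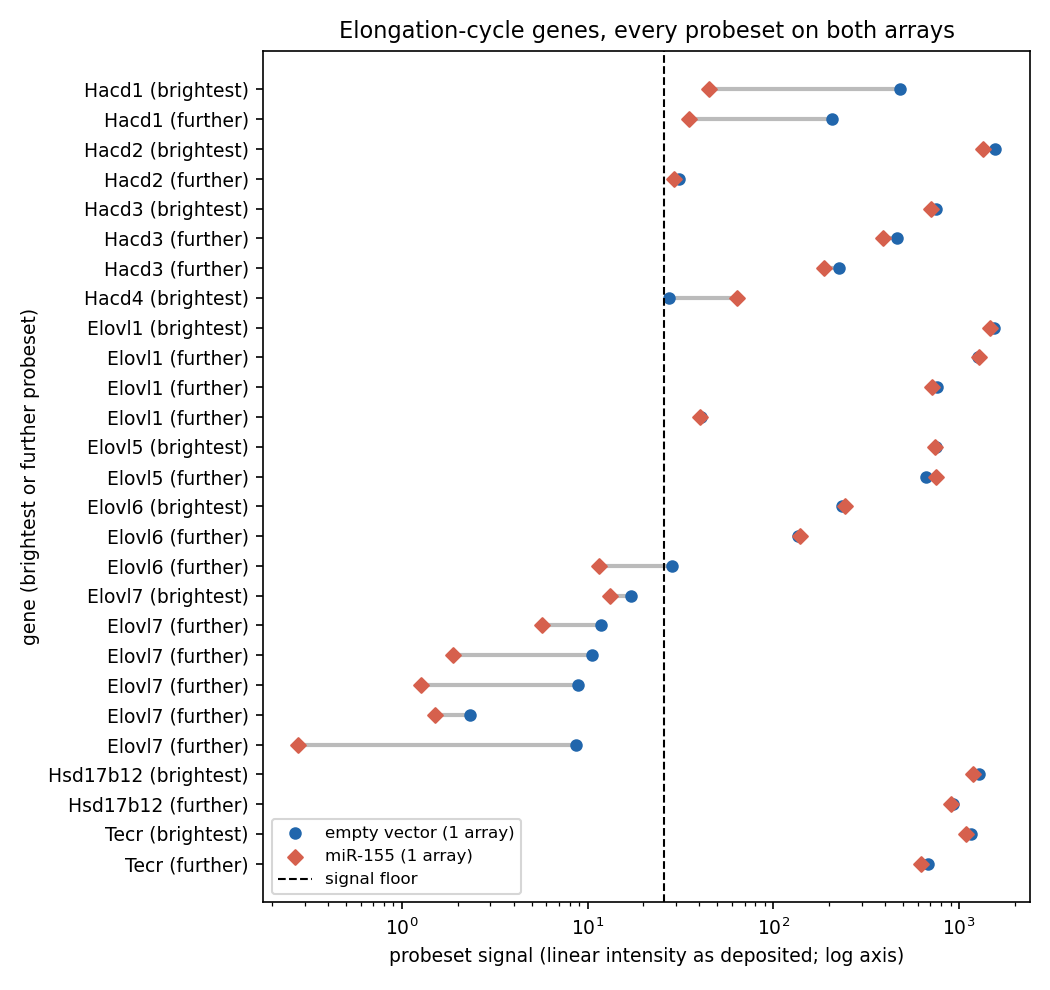
Signal of each of the 27 probesets of the 10 elongation-cycle genes (rows) on the empty-vector array (circles) and the miR-155 array (diamonds), on a log axis of linear intensity, with the signal floor of 25.8 dashed. Both Hacd1 probesets read far lower on the miR-155 array, Hacd4 read higher, and all 6 Elovl7 probesets lay below the floor.

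Hacd1 encodes the dehydratase of the family known mainly from muscle, which removes water from the hydroxyacyl-CoA intermediate. Its brightest probeset read 481 with empty vector and 45.1 with miR-155. It was therefore 10.7-fold lower, with a log2 ratio of -3.41 and a local SD of 0.30, so that 9.38% of the empty-vector signal was left. This was the lowest ratio of all 9097 genes kept. Among the other genes of like signal, over which the local SD was taken, ratios ran from -1.45 to 2.34.

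The second Hacd1 probeset read 206 with empty vector and 35.2 with miR-155, which is 5.86-fold lower (log2 ratio -2.55). The pair of probesets thus moved the same way and differed from each other by 0.87 in log2 ratio. On both, the miR-155 reading remained above the floor, and 68.2% and 65.6% of all probesets of that array were dimmer. In the empty-vector array the corresponding shares were 91.9% and 84.5%. The brightest probeset carries the design's mark for probes that can match more than 1 transcript, and the second the mark for alternative transcripts of 1 gene. Marks for probes that can match other sequences are also carried by the brightest probesets of Elovl1 and Elovl5, and of Tcl1b3, named below. Of 3892 genes with at least 2 probesets at or above the floor on both arrays, 10 had every such probeset at least 2-fold lower, and 1 of these, Hacd1, had every one at least 4-fold lower. This share rests on the contrast that chose the gene and is a description. The floor also leaves out probesets that fell below it with miR-155. An example is the gene Dner, whose first probeset was 5.31-fold lower and whose second read 112 with empty vector and 12.0 with miR-155.

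The paralog Hacd2, the broadly expressed dehydratase, read 1558 with empty vector and 1347 with miR-155 (log2 ratio -0.21, local SD 0.15). Its dim second probeset read 31.1 and 29.2, a ratio of -0.09. Hacd3, whose product joins a dehydratase part to a co-chaperone-like domain, read 746 and 703 (-0.09, local SD 0.18), and both further probesets gave -0.26. Neither paralog reached 1.5-fold in any probeset, and both lay within 1 local SD of the median of genes of like signal.

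Hacd4 is the remaining member of the dehydratase family and the 1 elongation gene at least 1.5-fold higher with miR-155. Its only probeset read 27.4 with empty vector, just above the floor, and 63.4 with miR-155. The log2 ratio was 1.21, or 2.31-fold higher, but the local SD at this signal was 0.55, the widest among the elongation genes. Of the 500 genes of like signal, 21 including Hacd4 had a ratio at least as high, and 35 were at least 2-fold higher, where 1.92% of all genes kept were. With an offset of 50 added to both signals the ratio fell to 0.55, within 1.5-fold. No second probeset was there to set beside it.

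The log2 ratio of Hacd1 minus that of each paralog was -3.21 for Hacd2, -3.33 for Hacd3 and -4.62 for Hacd4. Against the median of the 3 paralogs the difference was -3.33. Under 6 of the 7 other ways of processing, in which all 4 genes were kept, it ran from -3.34 to -2.40. In the remaining one, restricted to the upper 25% of signal, Hacd1 and Hacd4 were not kept. Dropping the filter, raising readings below the floor and centring the median cannot change the difference from the paralog median. It stayed at -3.33 in these settings, which therefore say nothing about its stability.

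**Figure D2:**
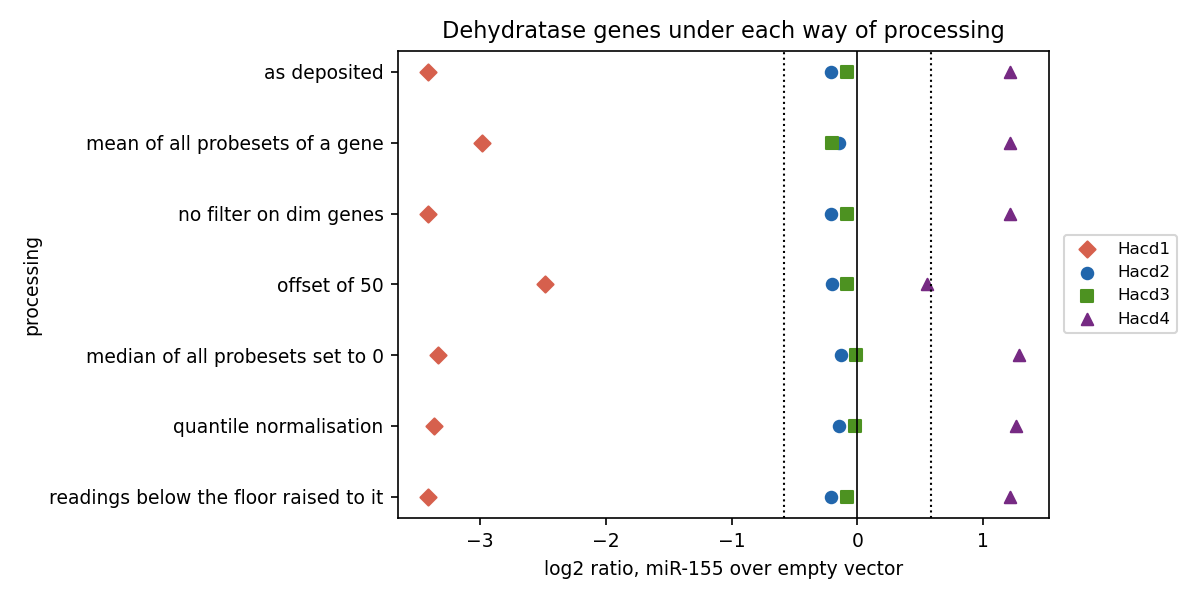
Log2 ratio (miR-155 over empty vector, horizontal axis) of the 4 dehydratase genes under the values as deposited and 6 other ways of processing (rows); dotted lines mark 1.5-fold. Hacd1 stayed between -3.41 and -2.48, while Hacd4 moved inside the 1.5-fold lines with an offset of 50. Dropping the filter or raising readings below the floor cannot change these ratios.

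The elongases carry out the first and rate-limiting condensation, each with its own range of substrates. Elovl1, which extends saturated and monounsaturated very-long-chain acyl-CoAs, read 1548 with empty vector and 1474 with miR-155 (log2 ratio -0.07, local SD 0.15). The log2 ratios of the other 3 probesets were -0.09, -0.03 and 0.03. Elovl5, an elongase of polyunsaturated fatty acids, read 750 and 741 (-0.02, local SD 0.18) and 0.18 in its second probeset. Elovl6, which turns palmitate into stearate, read 235 and 244 (0.06, local SD 0.24) and 0.05 in its second probeset. The 3 elongases kept had a median log2 ratio of -0.02.

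The dimmest probeset of Elovl6 read 28.4 with empty vector and 11.6 with miR-155, the latter below the floor. It lowered the mean over all Elovl6 probesets to -0.40. Elovl7, an elongase of saturated fatty acids, was below the floor in all 6 of its probesets on both arrays. Its brightest probeset read 17.1 and 13.2. All 6 read lower on the miR-155 array, where the median of all probesets was also lower (14.1 against 15.4). Its other 5 read 2.32 to 11.8 with empty vector and 0.28 to 5.65 with miR-155. The precision at this level is unknown, so no ratio is given and no direction is read for Elovl7.

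Hsd17b12, the ketoacyl-CoA reductase of the second step, read 1275 with empty vector and 1182 with miR-155 (log2 ratio -0.11, local SD 0.15), with -0.03 in its second probeset. Tecr, the enoyl-CoA reductase that closes the cycle, read 1158 and 1094 (-0.08, local SD 0.16), with -0.13 in its second probeset. Both steps have 1 enzyme gene each in this set, and neither gene left the spread of genes of like signal.

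Without Hacd1, the 8 other genes kept had a median log2 ratio of -0.08, close to the -0.05 of all genes kept. It ran from -0.09 to 0.0015 over the other ways of processing, so its sign is not settled. The set gained Elovl7 with no filter and lost Hacd4 in the upper 25% of signal, and neither setting gave an end of that range. The 10 further probesets of the 8 genes that reached the floor on each array lay between -0.26 and 0.18. All 7 genes other than Hacd1 and Hacd4 lay within 1 local SD of their local median, at most 0.93 local SD away.

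**Figure D3:**
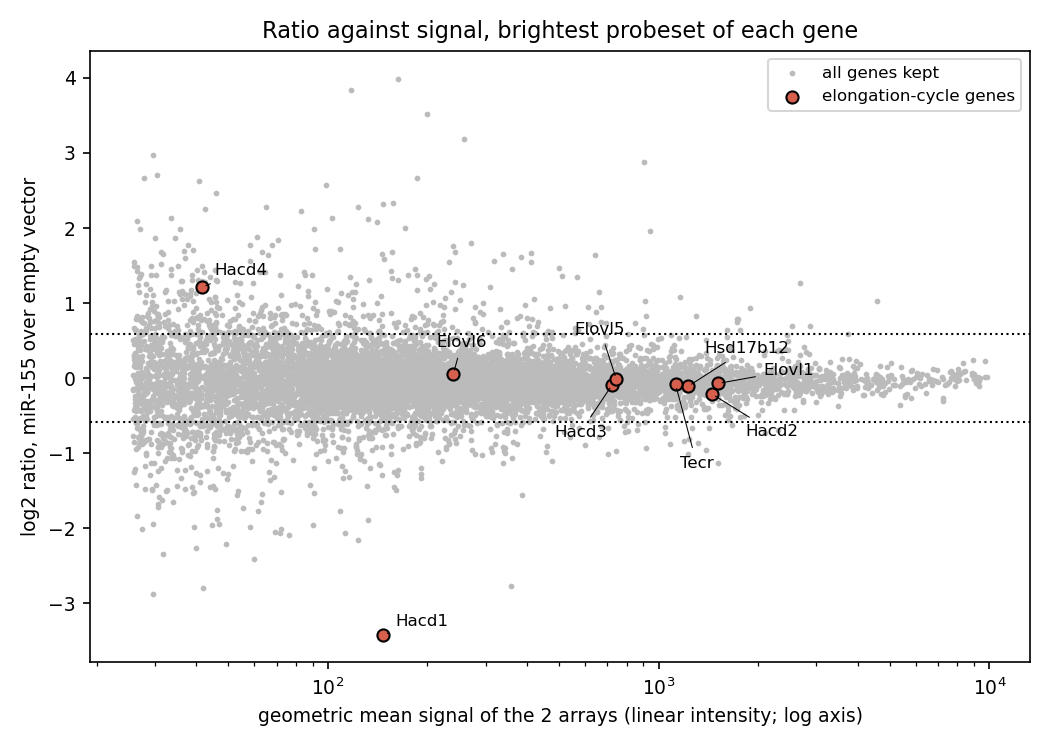
Log2 ratio (miR-155 over empty vector, vertical axis) against geometric mean signal (log axis) for the 9097 genes kept (grey) and the 9 elongation-cycle genes among them (red); dotted lines mark 1.5-fold. Hacd1 at -3.41 is the lowest point of the plot, Hacd4 at 1.21 lies among dim genes, and the other 7 sit between -0.21 and 0.06.

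The genes with log2 ratios nearest that of Hacd1 over the 2 arrays were taken from those that reached the floor on each array. All were less low by definition, since Hacd1 had the lowest ratio of the genes kept. Tcl1b3 was at -2.77, Dner at -2.41, Blvrb at -2.15, Trp53i11 at -2.09 and Fkbp11 at -2.07, which is 0.64 to 1.35 away from Hacd1. The reading of Dner with miR-155 was 26.0, just above the floor, and its second probeset read 112 and 12.0, the latter below the floor. Likeness here is a difference of 1 ratio between 2 arrays.

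Genes next to Hacd1 on chromosome 2 were taken by order in the RefSeq table. Of the 3 nearest protein-coding genes with a probeset on each side, 3 were kept, and all 3 had ratios within 1.5-fold. Vim, encoding the filament protein vimentin, read 5992 with empty vector and 5138 with miR-155 (log2 ratio -0.22, local SD 0.11). The RNA methyltransferase gene Trdmt1 was at -0.37 (local SD 0.24), and Stam, an adaptor of endosomal sorting, at -0.36 (local SD 0.31). The other 3 were below the floor on both arrays, with readings of 12.5 and 8.86 for St8sia6, 8.26 and 6.22 for Tmem236 and 10.3 and 12.9 for Mrc1 (empty vector first).

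As Hacd1 is known from muscle, 22 markers of striated muscle were read as well. Their summed signal was 613 with empty vector and 529 with miR-155, and 1 of the 22 was kept. This was the troponin gene Tnni2, at 410 and 326 (log2 ratio -0.33, local SD 0.21), which made up most of the sum. Its further probeset above the floor gave -0.10. Below the floor on both arrays were, among others, the myogenic factor Myod1 (3.73 and 17.3) and the muscle myosin Myh1 (10.3 and 1.14). Besides Tnni2, 3 markers reached the floor on 1 array. The creatine kinase Ckm read 29.1 with empty vector and 12.1 with miR-155, the myosin light chain Mylpf 27.0 and 17.6, and the skeletal actin Acta1 4.12 and 33.0, so they went both ways. On the array where Hacd1 read 481, 19 of the 22 markers were thus below the floor, and 20 were on the other.

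Of 5 adipocyte markers with a probeset 1 was kept, the lipase gene Lipe (73.1 and 119, log2 ratio 0.70). Of 9 B and T cell markers 1 reached the floor on 1 array, Cd8a at 14.8 and 26.5.

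Pathways that feed or use elongation were described with 122 further genes in 9 lists, of which 115 had a probeset and 83 were kept. Of these 83 genes 4 were at least 1.5-fold lower (4.82%) and 3 at least 1.5-fold higher (3.61%), both near the shares of all genes kept. Their median log2 ratio was -0.09. The relatives Elovl2, Elovl3, Elovl4 and Tecrl were all below the floor on both arrays.

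The supply of malonyl-CoA and palmitate had 7 of 9 genes kept, with a median log2 ratio of -0.23, 1 gene at least 1.5-fold lower and 1 higher. The malic enzyme Me1, a source of NADPH for lipid synthesis, read 299 with empty vector and 172 with miR-155 (-0.80, local SD 0.25, and -1.11 in its second probeset). Acss2, which makes acetyl-CoA from acetate, went the other way, at 47.9 and 84.8 (0.82, local SD 0.38, and 0.59 in its second probeset above the floor). Fasn, the fatty acid synthase, was at -0.17 and Acaca, the acetyl-CoA carboxylase that makes malonyl-CoA, at -0.25.

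Among desaturases and their electron carriers 10 of 11 genes were kept, with 0 at least 1.5-fold lower and 1 higher (median -0.16). Scd1, which puts the first double bond into stearate and palmitate, read 320 with empty vector and 518 with miR-155 (log2 ratio 0.70, local SD 0.19), and its second probeset gave 0.89. The polyunsaturated desaturases Fads1 and Fads2 were at -0.25 and -0.31. Larger ratios besides Scd1 were those of the electron carrier Cyb5a (-0.43, local SD 0.14) and, the other way, Degs1 (0.36, local SD 0.17).

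Of acyl-CoA synthetases and acyl-CoA binding proteins, 9 of 15 with a probeset were kept, 2 of them at least 1.5-fold lower and 0 higher (median -0.01). Acbd5, a peroxisomal membrane protein that binds very-long-chain acyl-CoAs, read 316 with empty vector and 172 with miR-155 (-0.88, local SD 0.23), while its dim second probeset read 27.0 and 15.3. Slc27a4, a fatty acid transport protein with very-long-chain acyl-CoA synthetase activity, read 72.9 and 37.9 (-0.94, local SD 0.44).

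Peroxisomal oxidation of very long chains had 11 of 14 genes kept, with 1 at least 1.5-fold lower and 0 higher (median -0.16). The gene was Abcd4, a relative of the peroxisomal transporters that is known from lysosomal cobalamin transport, at 81.5 and 53.3 (-0.61, local SD 0.40). Abcd3, a peroxisomal fatty acid importer, was at -0.11.

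Sphingolipid synthesis, a main outlet of very long chains, had 11 of 17 genes kept and 0 past 1.5-fold in either direction (median 0.04). The largest ratios were those of the ceramide transfer protein Cert1 (-0.54, with 0.07, -0.33 and -0.43 in its further probesets) and the sphingomyelin synthase Sgms1 (0.45, against -0.30 and -0.33 in its further probesets above the floor). The ceramide synthase Cers2, which uses very-long-chain acyl-CoAs, was at -0.02 (877 and 863).

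Genes that make and break down sphingosine and sphingosine 1-phosphate, a pathway in which Tecr also takes part, had 6 of 10 members kept and 0 past 1.5-fold (median -0.06). Its largest ratios were those of the lyase Sgpl1, which cleaves sphingosine 1-phosphate (-0.32, against 0.24 in its second probeset), and the kinase Sphk2, which makes it (-0.12). Mitochondrial beta-oxidation had 15 of 16 genes kept and 0 past 1.5-fold (median -0.10), with Cpt2 at -0.46 and Acadl at -0.27 as the largest.

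Transcription factors and sensors of lipid synthesis had 14 of 19 genes kept, with 0 at least 1.5-fold lower and 1 higher (median -0.05). That gene was Usf1, at 46.3 with empty vector and 78.6 with miR-155 (log2 ratio 0.76, local SD 0.40), but its further probeset above the floor gave 0.11. Srebf1, which encodes the lipogenic factor SREBP1, read 508 and 501 (-0.02).

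**Figure D4:**
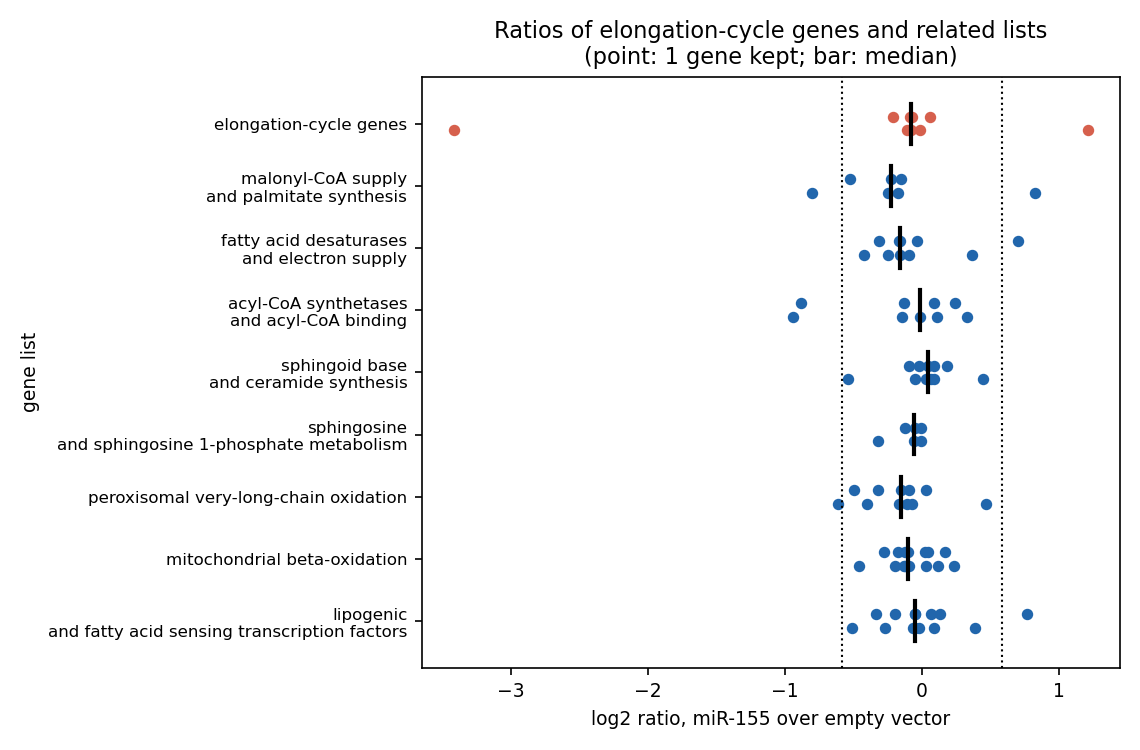
Log2 ratio (miR-155 over empty vector, horizontal axis) of each gene kept (points) in the elongation-cycle genes and 8 related lists (rows), with list medians as bars and 1.5-fold as dotted lines. The list medians lie between -0.23 and 0.04, and no gene of a related list comes near the -3.41 of Hacd1.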

How the data were processed

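The authors deposited probeset intensities on a linear scale for 2 arrays. Per the labels' protocols, total RNA was pooled from 5 clones per arm and biotin-labelled by standard Affymetrix procedures; the sources used here do not give how probes were summarised, corrected for background or scaled, and hold no detection calls. The platform annotation named the probesets, and symbols were checked by Entrez identifier against RefSeq (GRCm38.p6); all 10 genes matched. Of 45101 probesets, 34945 had 1 symbol, and 64 control probesets were left out. Ratios are log2 of the miR-155 intensity minus log2 of the empty-vector intensity, with no offset (Python 3.11.15, numpy 2.4.6, pandas 2.3.3).

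Members, gene lists and thresholds were chosen with earlier results of these data known. Named were all members and each list's kept genes past 1.5-fold (otherwise its 2 largest ratios). Also named were 5 genes with ratios nearest Hacd1 and 3 neighbours on each side. Further genes were given as values for their role or ratio, picked after their values were seen. These were Csf1r, Lyz2, Myod1, Myh1, Ckm, Mylpf, Acta1, Cd8a, Fasn, Acaca, Fads1, Fads2, Cyb5a, Degs1, Abcd3, Cers2, Srebf1 and those below the floor. The steps were tested on simulated ratios. The number of arrays limits the precision of every value.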

Additional observations from a re-analysis of the deposited data

How the results depend on the processing

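Of 7 alternatives, the offset and the averaging of probesets moved the ratio of Hacd1 by more than its local SD, and the upper 25% of signal left Hacd1 and Hacd4 out. With an offset of 50, Hacd1 was at -2.48, its difference from the paralog median was -2.40, and 0 elongation genes were at least 1.5-fold higher. With averaged probesets these 2 values were -2.98 and -2.83. Rescaling the arrays moved none of the values reported for Hacd1 by more than its local SD. Centring cannot change the difference between Hacd1 and its paralogs. In the upper 25% of signal, 0 elongation genes passed 1.5-fold in the lower and 0 in the higher direction.

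Genes kept at least 1.5-fold lower were 545, against 914 with averaged probesets, 95 in the upper 25%, 3848 with no filter and 188 with the offset. Those at least 1.5-fold higher were 484, against 696, 110, 3111 and 196 in the same settings. Rescaling turned the balance, with 432 lower and 617 higher after setting the median of all probesets to 0 and 464 and 572 after quantile normalisation. In the related lists 4 genes were at least 1.5-fold lower, against 8, 2, 14 and 2 with averaging, upper 25%, no filter and offset. Those higher were 3, against 4, 1, 8 and 1 in the same settings. The settings held 9097 genes with averaging and with the offset, 4549 in the upper 25% and 18193 with no filter. Of the related lists 83 genes were kept, and all 115 with a probeset entered with no filter. The counts therefore do not compare between settings as shares. Fewer genes enter in the upper 25% and more with no filter, by construction. The offset was added to the same genes and shrinks every ratio by construction. Averaging left the number of genes unchanged, and why its counts differed was not tested. No paired analysis was possible because each group has 1 array, which leaves no pairs to block on.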
